A study of Sus scrofa with 12 samples.

Results

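Muscle cells build and renew thin filaments by adding actin monomers at filament ends and by cutting and capping old filaments. Profilins (*PFN1*, *PFN2*) bind actin monomers and hand them to growing ends, whereas cofilins such as *CFL2*, the form named for muscle, sever filaments and speed up their turnover. Cofilin is switched off when LIM kinase (*LIMK1*) phosphorylates a serine next to its start, and switched on again when a slingshot phosphatase (*SSH2*) removes the phosphate. *PAK1* is a kinase that acts downstream of small GTPases and phosphorylates LIM kinase, *RHOD* is a small GTPase, and *ABLIM1* and *ABLIM3* are actin-binding LIM proteins.

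These 9 genes are the members of the group described here. They were listed by name as actin-binding and actin-severing regulators out of the 28224 genes annotated in Sscrofa11.1, and were chosen by their FPKM levels in these animals as well as by name. The difference between the groups took part in that choice, so it is given for the members as a description without a test. All 9 passed the filter on low values (a mean above 0.5 FPKM), as did 9129 genes in all.

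RNA came from the loin muscle (*Longissimus dorsi*) of 12 male purebred Iberian pigs, castrated and fattened outdoors on acorns and grass, 6 in a Tough and 6 in a Tender group, with 1 library per animal. Tough animals had high and Tender animals low estimated breeding values for the shear force of cooked loin, the force needed to cut the meat across its fibres. Shear force lay between 7.32 and 10.63 kg/cm2 in the Tough animals and between 2.18 and 3.43 kg/cm2 in the Tender animals. Each library was deposited as its own Cufflinks assembly, in which every transcript has exons and a level in FPKM (fragments scaled to transcript length and library size) but no gene name and no read count.

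A gene's level sums FPKM times length over the transcripts assigned to it and divides by its exonic length. This measure falls when a transcript was assembled without one of its ends, so a level per coding base, counting only the part of each transcript in coding exons, is given beside it, a measure added after the values were seen. A gene with no assigned transcript is listed at 0, which may be an assembly that failed. The assemblies held 25798 to 31353 transcripts, and the read coverage that went with 1 FPKM, a relative measure of depth, lay between 6.54 and 10.2. Loin muscle from a pig holds several cell types, and fewer cells of a type cannot be told apart from less RNA per cell.

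The tissue label was met by its markers, since the 7 annotated of 8 skeletal muscle genes all had a level above 0. Some other markers moved with the groups. The summed level of *HBB* and *ALAS2*, both red cell genes, was 124 to 206 FPKM in Tough libraries and 238 to 351 FPKM in Tender libraries, without overlap, while the red cell gene *SLC4A1* is listed at 0 throughout. All 7 fast fibre genes had positive differences (Tough minus Tender) and all 6 slow fibre genes negative ones, with overlapping sums in each case (slow fibre genes 3099.7 to 6634 FPKM in Tough and 4915 to 8499.7 FPKM in Tender). Smooth muscle genes, 5 of 5 with positive differences, reached at most 76.6 FPKM in Tough and 46.7 FPKM in Tender. Endothelial genes, all 5 tested with negative differences, summed to 15.7 to 32.7 FPKM in Tough and 25.4 to 41.7 FPKM in Tender. A further endothelial gene, *CLDN5*, is listed at 0 throughout. Fibroblast genes, 5 of 5 with positive differences, summed to 64.0 to 198 FPKM in Tough and 61.4 to 141 FPKM in Tender. Macrophage genes, 1 with a positive and 4 with negative differences, and adipocyte genes, 1 positive and 2 negative, had mixed signs and overlapping sums. The adipocyte sum was 15.7 to 37.2 FPKM in Tough and 9.73 to 31.0 FPKM in Tender. It lacks *ADIPOQ*, which is listed at 0 throughout, and only 3 of the 5 adipocyte genes were tested. The authors report less intramuscular fat in the Tough group. The part of these cell types and of fat in the differences of the actin regulators was not tested.

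Genome sequence from 3 places carries what follows. The first set is the start of the coding sequence of the 3 cofilins, shown because it holds the serine on which LIM kinase and slingshot act. The codon of that serine is in capitals, and each line runs over the first 30 coding bases as spliced.
CFL2: atggctTCTggagttacagtgaatgatgaa
CFL1: atggccTCCggtgtggctgtctctgacggg
DSTN: atggctTCAggagtgcaagttgctgatgaa
The serine codon lies at chr7:65091417-65091419 in *CFL2*, at chr2:6473542-6473544 in *CFL1* and at chr17:26043395-26043397 in *DSTN*, all on the plus strand of Sscrofa11.1. All 3 transcripts shown hold a serine codon at this place, each a different one. A further annotated *DSTN* transcript starts downstream and has no serine codon there. *CFL2* and *DSTN* shared 23 of the 30 bases, *CFL2* and *CFL1* 18. In *CFL2* the start codon ends the first exon and the serine codon is in the second.

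The second set is the 200 bases before each of the first exon pair from which *ABLIM3* was assembled (the last few belong to the exon in some assemblies), shown because they are near copies of each other. Bases that found no match in an alignment of both are in capitals.
ABLIM3 upstream copy: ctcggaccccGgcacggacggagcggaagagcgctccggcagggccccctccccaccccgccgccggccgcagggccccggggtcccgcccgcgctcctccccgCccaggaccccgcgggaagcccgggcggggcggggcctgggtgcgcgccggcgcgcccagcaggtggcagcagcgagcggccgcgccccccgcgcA
ABLIM3 downstream copy: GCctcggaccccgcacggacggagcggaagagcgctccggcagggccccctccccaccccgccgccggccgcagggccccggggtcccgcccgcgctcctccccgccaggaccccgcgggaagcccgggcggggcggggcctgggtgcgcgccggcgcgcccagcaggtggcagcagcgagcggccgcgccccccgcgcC
They lie at chr2:150260008-150260207 and chr2:150295795-150295994 on the plus strand, 35787 bases apart. Of 202 aligned positions 197 were identical. The first exon that follows, up to its splice donor, was 99.3% identical, and the first 200 intron bases after it matched at 199. Reads from one of these exons can thus hardly be told from reads of the other. Whether the pair is a true duplication or an error of the genome build was not tested.

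The third set belongs to *SSH2*. Of its 22 spliced transcripts, 12 began at an exon that the annotation of this build does not hold, and the others elsewhere in the gene. The upper line gives the splice donor of that exon, its last 10 bases followed by 10 intron bases with the GT of the donor in capitals. The lower line gives the 200 bases before its median assembled start, with the match to CANNTG (the E-box, bound by muscle basic helix-loop-helix factors among others) in capitals.
SSH2 donor: tcaaccagctGTgagtgcgc
SSH2 before start: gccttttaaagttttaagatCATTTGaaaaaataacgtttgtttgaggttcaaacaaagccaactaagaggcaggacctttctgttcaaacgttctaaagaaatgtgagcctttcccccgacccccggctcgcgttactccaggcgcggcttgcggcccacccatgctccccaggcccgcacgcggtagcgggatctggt
These are chr12:45931716-45931735 and chr12:45932153-45932352, both on the minus strand. The exon was found in 12 of 12 libraries, 313 to 629 bases long depending on how far its 5′ end was assembled, and was spliced in each of them across 43733 bases to the annotated exon at chr12:45887889-45887992. The start lay 153568 bases inside the annotated gene. The annotated first exon was assembled only in Tough 2 and Tender 4, in a transcript with 1.87 FPKM in the Tough library and 1.44 FPKM in the Tender library.

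Windows of 200 bases were searched before 15 assembled starts of 8 members (*PFN1* had too few). On either strand CANNTG was present in 9 of 15 windows, against 53.5% of 19636 windows before annotated protein-coding genes, and GGGCGG, the GC box, in 8 of 15 against 43.6%. The MEF2 box, the CArG box and TATAAA were in 0 of 15, against 1.89%, 0.993% and 7.70% of all windows. The *ABLIM3* windows are copies and the pair of *PFN2* windows overlap, so these counts are not of independent sequences. GC content of the windows ran between 42.5% and 85.5%.

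Among the monomer-binding genes, *PFN2* had the lower level in Tough muscle. The gene lies at chr13:90177534-90185978 on the minus strand. Its level had a minimum of 11.9, a median of 21.2 and a maximum of 26.7 FPKM in Tough libraries, against 26.0, 31.6 and 44.3 FPKM in Tender libraries. The groups met only where Tough 3 stood above Tender 1, and 5 of 6 Tender libraries were at or above the highest Tough one. Means were 20.0 ± 5.42 FPKM in Tough and 32.6 ± 6.91 FPKM in Tender (SD, n = 6 each), and the difference on the log2(FPKM + 0.5) scale was -0.71 (standard error 0.20), Tough minus Tender. Per coding base it was -0.68, with means of 21.3 ± 5.26 FPKM in Tough and 33.8 ± 6.54 FPKM in Tender, so the group means read alike by both measures. Single libraries could differ. Tough 4, the lowest by assigned transcripts at 11.9 FPKM, had 41.2% of the exonic bases assembled and 20.5 FPKM per coding base. Tender 4 had 28.8 FPKM by assigned transcripts and 42.2 FPKM per coding base. Leaving out any 1 library kept the difference between -0.80 and -0.57, and a stricter rule, under which 90% of a transcript must lie in the gene, gave -0.32. Most *PFN2* transcripts began at the annotated first exon, found in 11 libraries, and in 2 Tough and 3 Tender libraries a splice donor at chr13:90183684 was used that the annotation does not hold.

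*PFN1*, the profilin that most cells use, could hardly be measured. The gene is short, with 889 exonic bases at chr12:51962642-51965570, and lies between *ENO3* and *RNF167*. A spliced transcript of its 3 exons was assembled only in Tough 4 and Tender 4, at 47.6 FPKM in the Tough library and 42.5 FPKM in the Tender library. Of the others, 9 held only an unspliced piece over part of the gene, with 18.3% to 60.3% of its bases in *PFN1*, and Tough 2 held none. The 3′ noncoding part was in no assembly. A piece had to hold at least 50% of its bases in the gene to be assigned, which Tender 3 passed with 60.3% and Tender 6 missed with 47.8%. By assigned transcripts the gene is therefore listed at 0 in 5 Tough and 4 Tender libraries. Per coding base it had a median of 5.26 FPKM in Tough and 5.97 FPKM in Tender, with Tough 4 at 44.9 FPKM and Tender 4 at 39.8 FPKM.

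**Figure D1:**
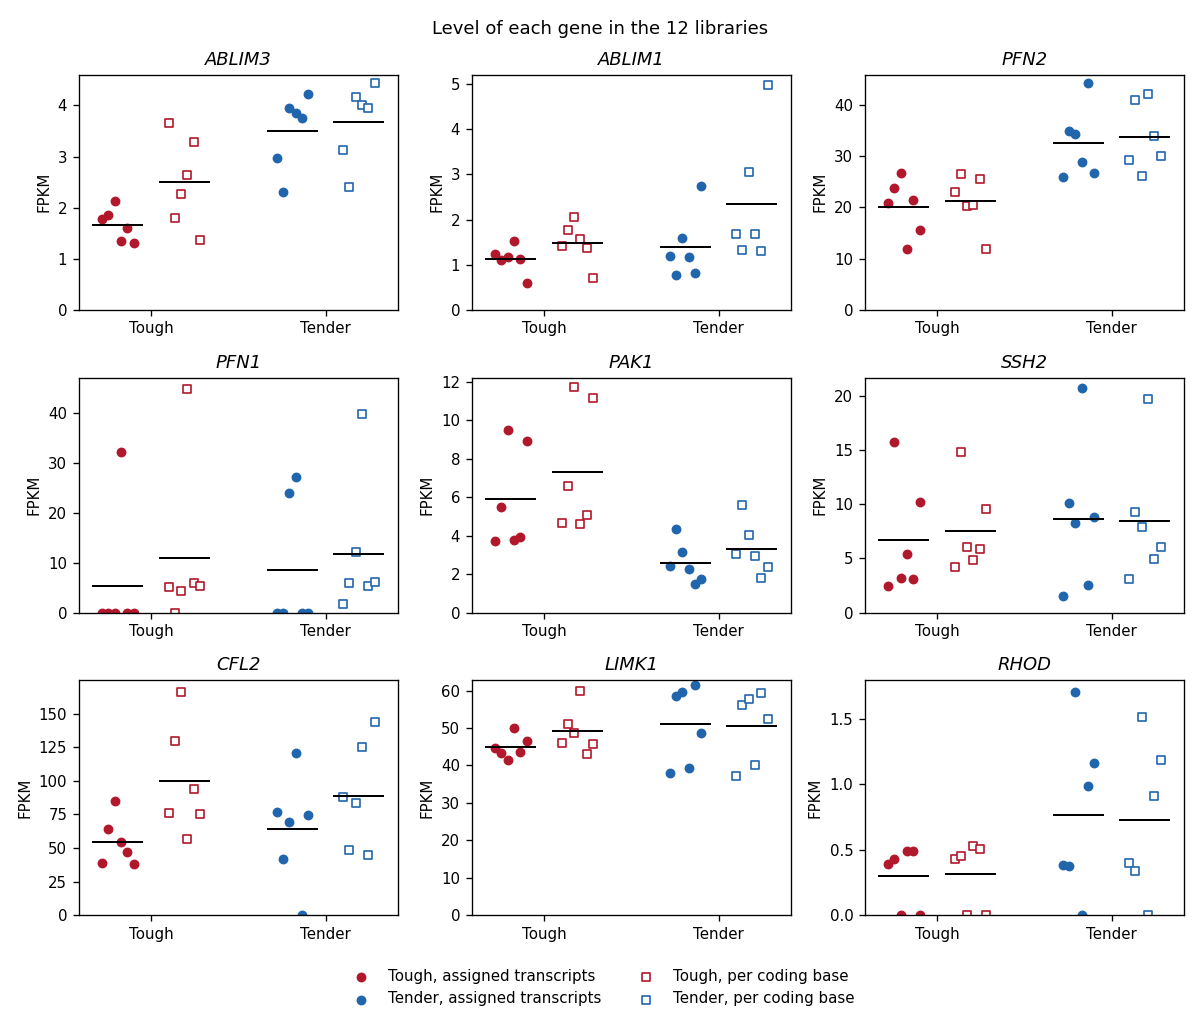
Level of each of the 9 genes in FPKM (vertical axis, from 0) in the 6 Tough and 6 Tender libraries, by assigned transcripts (filled circles) and per coding base (open squares); each point is 1 library and the bar is the group mean. *ABLIM3* separates the groups by assigned transcripts, 1.31 to 2.13 FPKM in Tough against 2.30 to 4.22 FPKM in Tender, but not per coding base.

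The severing protein *CFL2* was the member with the highest level. It lies at chr7:65090170-65094521 on the plus strand, and all 12 assemblies held the same annotated chain of 4 exons, from the outer of 2 annotated starts. By assigned transcripts its level had a minimum of 38.0, a median of 51.0 and a maximum of 85.0 FPKM in Tough libraries, against 0, 72.0 and 120 FPKM in Tender libraries. The 0 belongs to Tender 5, where the *CFL2* exons sat in an assembled transcript of 7426 bases of which only 41.4% lay in the gene. That 1 library turned the difference, which was 0.73 with it and -0.46 without it.

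Counting the part of every transcript in exons of *CFL2* gave Tender 5 a level of 42.5 FPKM and a difference of -0.38. Counting coding exons alone gave 0.20 (standard error 0.33), with 99.6 ± 40.9 FPKM in Tough and 88.8 ± 39.7 FPKM in Tender. The sign of the *CFL2* difference thus depended on which bases were counted. The groups overlapped by each of these 3 measures.

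The assembled 3′ end of *CFL2* also differed between most animals of the groups. Of its 2406 annotated 3′ noncoding bases, 34.5% to 35.2% were assembled in Tough 1, 2, 3, 5 and 6 and in Tender 6. In Tough 4 and in the other 5 Tender libraries 81.6% to 100% were assembled. Coding bases had 75.1 to 166 FPKM in the 6 libraries with the shorter end and 44.7 to 125 FPKM in the 6 with the longer one. Whether the short end is a true polyadenylation site or the point where an assembly stopped was not tested.

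*LIMK1*, the kinase that inactivates cofilin, lies at chr3:11252820-11279286 on the plus strand and varied least among the members. By assigned transcripts it had a minimum of 41.4, a median of 44.1 and a maximum of 49.9 FPKM in Tough libraries, against 38.1, 53.6 and 61.5 FPKM in Tender libraries. The Tender libraries fell on both sides of the Tough ones, with Tender 1 and 4 below all 6 and Tender 2, 3 and 5 above all 6. The difference was -0.16 (standard error 0.14), and -0.03 per coding base. Its relative *LIMK2* is listed at 0 in 4 Tough and 2 Tender libraries and reached at most 0.934 FPKM in Tough and 1.14 FPKM in Tender.

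*SSH2*, the phosphatase that reactivates cofilin, lies at chr12:45818103-46085720 on the minus strand and had the widest spread of the members with a value in every library. By assigned transcripts it ran between 2.45 and 15.7 FPKM in Tough libraries, with a median of 4.28, and between 1.57 and 20.7 FPKM in Tender libraries, with a median of 8.55. The groups overlapped almost wholly, and the difference of -0.26 (standard error 0.59) became 0.06 without Tender 4.

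The level of *SSH2* followed the assembly of its end. The 4899 bases of its 3′ noncoding part were wholly missing in Tough 1, 3 and 5 and in Tender 1 and 5, and nearly wholly present (at least 99.9%) in the other 7 libraries. By assigned transcripts the 5 libraries without that end had 1.57 to 3.17 FPKM and the 7 with it 5.39 to 20.7 FPKM, with no overlap. Part of this gap is built in, because the missing bases count in the gene's length. Per coding base, where they do not, the 5 libraries without the end still had 3.08 to 6.08 FPKM and the 7 with it 4.83 to 19.7 FPKM, now overlapping. The mean over groups was 7.57 ± 4.01 FPKM in Tough and 8.49 ± 5.93 FPKM in Tender per coding base, a difference of -0.06 (standard error 0.38).

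**Figure D2:**
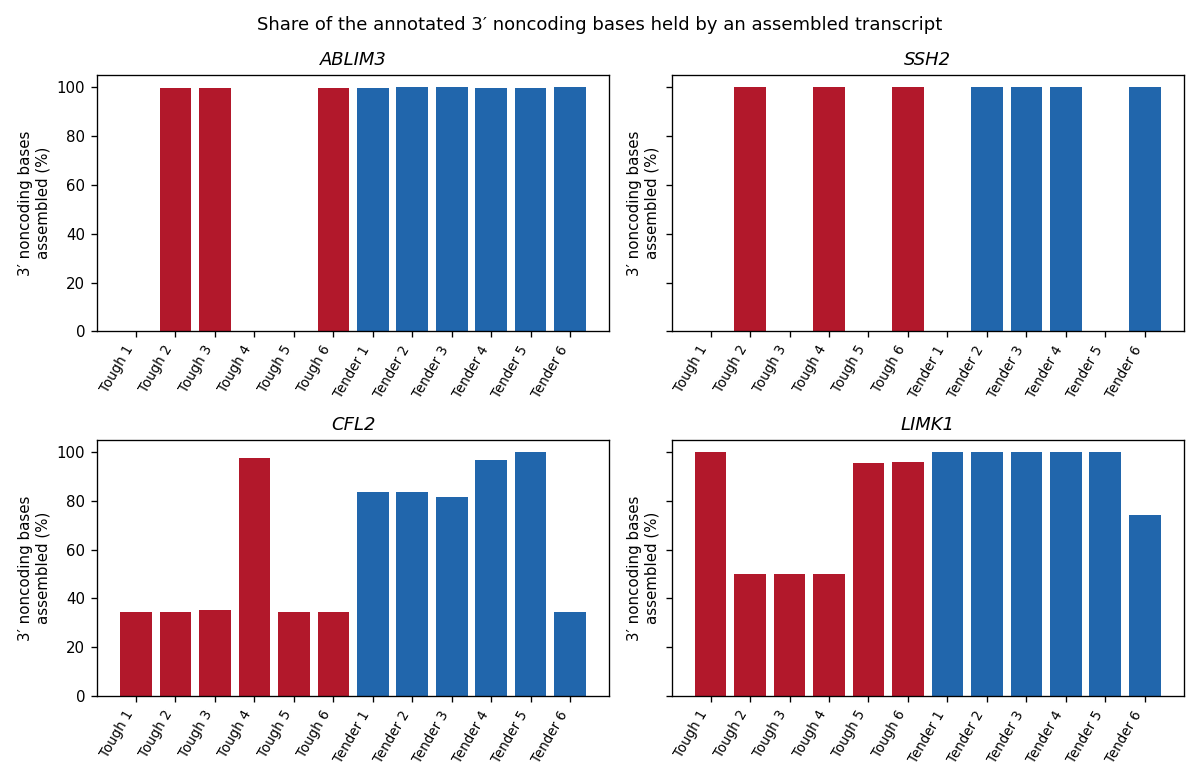
Percent of the annotated 3′ noncoding bases (vertical axis, 0 to 100%) that an assembled transcript covered in each of 6 Tough (red) and 6 Tender (blue) libraries, for *ABLIM3*, *SSH2*, *CFL2* and *LIMK1*. *ABLIM3* has 0% in Tough 1, 4 and 5, and *SSH2* has 0% in 3 Tough and 2 Tender libraries.

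Over 5883 tested genes with at least 500 annotated 3′ noncoding bases, the median gene had 95.6% to 97.9% of them assembled in every library. The share of these genes with none assembled was 3.91% to 4.52% in Tough libraries and 3.62% to 4.93% in Tender libraries. The losses at *ABLIM3* and *SSH2* thus fell in libraries whose genes in general kept their ends.

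*PAK1*, the kinase upstream of LIM kinase, was the member with the higher level in Tough muscle by every measure tried. It lies at chr9:11830095-11973074 on the minus strand. By assigned transcripts it had a minimum of 3.72, a median of 4.72 and a maximum of 9.53 FPKM in Tough libraries, against 1.49, 2.36 and 4.35 FPKM in Tender libraries. Only Tender 2 reached into the Tough range, above Tough 1, 4 and 5. Means were 5.89 ± 2.66 FPKM in Tough and 2.58 ± 1.04 FPKM in Tender (SD, n = 6 each), a log2 difference of 1.02 (standard error 0.28). It was 1.01 per coding base and stayed between 0.87 and 1.16 with any 1 library left out. Tough 3 and Tough 6 stood highest in the Tough group.

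The first exon of *PAK1* varied from animal to animal. Several annotated first exons were assembled in several libraries. The middle one, with its donor at chr9:11910235, was present in 11 libraries, the outermost at chr9:11972477 in 7 and the innermost at chr9:11897755 in 5. Of the spliced FPKM of these starts the middle exon held 51.4% to 80.1% in Tough libraries and 0% to 100% in Tender libraries. The outermost exon was in 5 of 6 Tough libraries, at 17.1% to 26.7% where present. In the Tender group it was in 2 of 6, where it held 100% (Tender 5) and 73.9% (Tender 6).

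**Figure D3:**
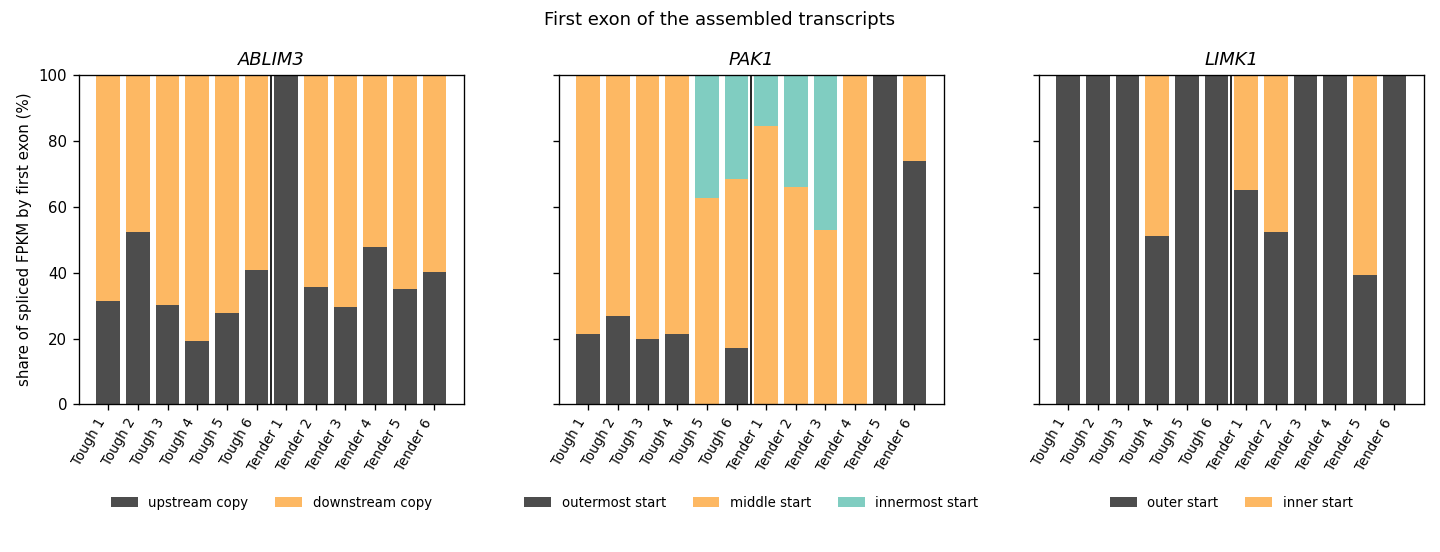
Share of the spliced FPKM (vertical axis, %) that began at each annotated first exon in 6 Tough libraries, left of the line, and 6 Tender libraries, right of it, for *ABLIM3*, *PAK1* and *LIMK1*. The outermost *PAK1* exon is present in 5 Tough and 2 Tender libraries, and the inner *LIMK1* exon in Tough 4 and in Tender 1, 2 and 5.

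At *LIMK1* the outer first exon was in all 12 libraries and held all of the spliced FPKM in 8 of them. The inner exon, with its donor at chr3:11254629, was in Tough 4, with 49.0%, and in Tender 1, 2 and 5, with 35.1% to 60.8%. At *ABLIM3* the upstream copy was in all 12 libraries and the downstream copy in 11. The upstream copy held 33.7% ± 11.5 in Tough and 48.1% ± 26.2 in Tender (SD, n = 6 each), with 100% in Tender 1. Since the pair of *ABLIM3* exons are near copies, this split rests on the few bases at which they differ, and on both copies being real.

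*RHOD*, at chr2:5392546-5404214 on the minus strand, was the member with the lowest level. It is listed at 0 in Tough 3, Tough 6 and Tender 4. By assigned transcripts it reached 0.494 FPKM in Tough, with a median of 0.409, and 1.71 FPKM in Tender, with a median of 0.683. Tender 3, 5 and 6 stood above every Tough library, and the other 3 Tender libraries did not. Means were 0.300 FPKM in Tough and 0.768 FPKM in Tender. With 0.534 FPKM over all 12 libraries, *RHOD* thus passed the filter only through the Tender group. The difference between the groups was -0.56 (standard error 0.35), and a log2 scale with 0.5 added understates it at so low a level.

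The actin-binding *ABLIM3*, at chr2:150260185-150423214 on the plus strand, was the member whose groups did not overlap by assigned transcripts. Per exon base, *PFN2* did not overlap either, with at most 23.9 FPKM in Tough and at least 26.1 FPKM in Tender. It did overlap by assigned transcripts and per coding base. The share of all genes without overlap was not taken per exon base, so nothing is read from this. By assigned transcripts *ABLIM3* had a minimum of 1.31, a median of 1.68 and a maximum of 2.13 FPKM in Tough libraries, against 2.30, 3.80 and 4.22 FPKM in Tender libraries. Means were 1.67 ± 0.313 FPKM in Tough and 3.51 ± 0.729 FPKM in Tender (SD, n = 6 each), a log2 difference of -0.88. Among all genes tested, every Tender library was above every Tough library in 0.0767% and every Tough library above every Tender library in 0.0219%. The rule used this contrast, so nothing is read from the 1 of 9 members against those shares.

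The assembled 3′ end of *ABLIM3* also differed between libraries. The 1911 bases of 3′ noncoding sequence of *ABLIM3* were wholly missing in Tough 1, 4 and 5 and at least 99.6% present in Tough 2, 3 and 6 and in the 6 Tender libraries. Among the 5883 genes above, 3 had at least 80% of this part in every Tender library and none of it in at least 3 Tough libraries, and 6 had the reverse. Per coding base, Tough 1, 4 and 5 had 2.65 to 3.65 FPKM, within the Tender range of 2.41 to 4.44 FPKM, while Tough 2, 3 and 6 had 1.37 to 2.26 FPKM, below it. The coding level was thus higher in the Tough libraries without the end than in those with it. Whether the end was truly absent or an assembly stopped short of it was not tested.

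Per coding base the *ABLIM3* groups therefore overlapped, with 2.50 ± 0.870 FPKM in Tough and 3.68 ± 0.763 FPKM in Tender and a difference of -0.51 (standard error 0.21). By this measure every Tender library was above every Tough library in 0.0104% of 9627 genes, and every Tough library above every Tender library in 0.0208%. The sum of transcript FPKM without regard to length gave -0.29. The direction was the same by each of these measures and the size was not.

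**Figure D4:**
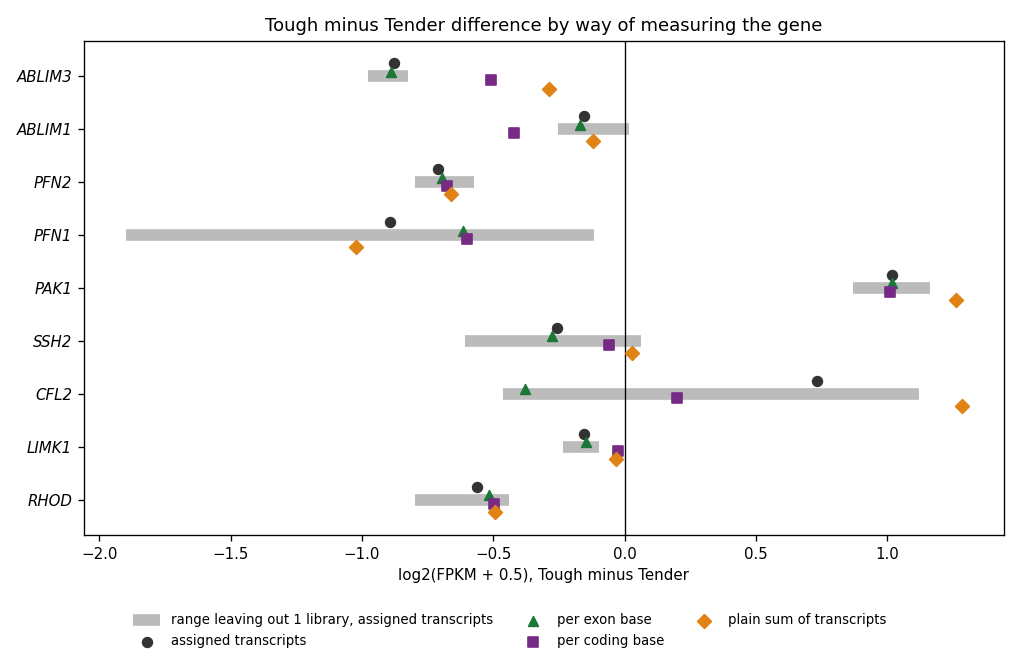
Difference on the log2(FPKM + 0.5) scale (horizontal axis), Tough minus Tender, for each gene by 4 ways of measuring it (symbols), with the range over fits that leave out 1 library (grey bar, assigned transcripts). *PFN2* and *PAK1* stay on 1 side of 0 throughout, *ABLIM3* shrinks from -0.88 to -0.29, and *CFL2* crosses 0. For *RHOD* the bar rests on 9 fits.

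*ABLIM1*, at chr14:124759811-125108722 on the minus strand, had the most varied transcripts of the group. There were 53 spliced transcripts with 33 different exon chains, none of which equalled 1 of its 39 annotated transcripts from end to end. By assigned transcripts it had a median of 1.15 FPKM in Tough and 1.18 FPKM in Tender, and the ranges were 0.588 to 1.52 FPKM in Tough and 0.765 to 2.75 FPKM in Tender. The groups overlapped, with Tender 6 alone well above the rest. The difference was -0.16 (standard error 0.23), and 0.02 without Tender 6. Per coding base it was -0.42, and -0.20 without Tender 6. The outermost first exon was assembled in 6 Tough and 5 Tender libraries, and an inner one at chr14:124959378 in 1 Tough and 4 Tender libraries.

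In total, 2 of the 9 members, *PAK1* and *CFL2*, had a positive difference by assigned transcripts, that of *CFL2* only with Tender 5 included, and 7 a negative one. Of all genes tested 3644 were positive and 5485 negative. Under limma with Benjamini-Hochberg adjustment over all genes, no gene was called (0% of 9129 genes). The contrast took part in the choice of the members, so nothing about them is read from this. By unadjusted p of at most 0.05 limma put 67 genes on the Tough side (0.734%) and 157 on the Tender side (1.72%), and an exact Wilcoxon test 56 and 137. After median-of-ratios scaling limma put 137 and 142 there. Per coding base these shares were 0.758% and 2.23% of 9627 genes, with 0% called. By either measure both limma shares together lie below the share that a p of 0.05 gives if no gene differs. No difference between the groups is read from them. The median of all genes tested was -0.04.

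By level per coding base, the order of the members over all 12 libraries ran *CFL2* (mean 94.2 FPKM), *LIMK1* (49.8), *PFN2* (27.5), *PFN1* (11.4), *SSH2* (8.03), *PAK1* (5.30), *ABLIM3* (3.09), *ABLIM1* (1.91) and *RHOD* (0.521). The steps at *LIMK1*, *ABLIM3* and *ABLIM1* were clear, since each stood above its next neighbour in at least 11 of 12 libraries. *PFN2* stood above *PFN1* in 11, but *PFN1* was assembled whole only in Tough 4 and Tender 4. There *PFN1* had 44.9 FPKM and *PFN2* 20.5 FPKM in Tough 4, and 39.8 and 42.2 FPKM in Tender 4. The order of these profilins is therefore not settled. Other neighbours changed places. *CFL2* was above *LIMK1* in 9, *PFN1* above *SSH2* in 7, and *SSH2* above *PAK1* in 9 of 12 libraries. *PAK1* was above *ABLIM3* in 6 of 6 Tough and 1 of 6 Tender libraries, so that step of the order differed between the groups.

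Shares within gene families place the members beside their relatives. Per coding base *LIMK1* made up 99.0% ± 1.60 of the LIM kinase FPKM in Tough and 98.1% ± 2.54 in Tender (SD, n = 6 each). *CFL2* made up 79.9% ± 7.20 of the cofilins in Tough and 74.9% ± 13.1 in Tender, ahead of *CFL1*, the form of non-muscle cells, and *DSTN*. The lowest *CFL2* share was 57.7%, in Tender 5, where *CFL1* held 37.6%. By assigned transcripts *CFL2* held 61.6% ± 9.04 in Tough and 55.8% ± 29.7 in Tender, with 0% in Tender 5.

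*PAK1* held 45.5% ± 9.78 of the PAK family in Tough and 27.2% ± 9.55 in Tender, the other large parts being *PAK2* and *PAK4*, while *PAK3* is listed at 0 in coding exons throughout. The *PAK1* shares ran between 36.1% and 58.4% in Tough and between 17.6% and 43.2% in Tender, and overlapped through Tender 2. *SSH2* held 60.1% ± 13.9 of the slingshots in Tough and 61.5% ± 11.3 in Tender. *PFN2* held 74.3% ± 23.3 of the profilins in Tough and 78.5% ± 15.8 in Tender, with its lowest shares in Tough 4 (31.4%) and Tender 4 (51.5%), the libraries in which *PFN1* was assembled whole.

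**Figure D5:**
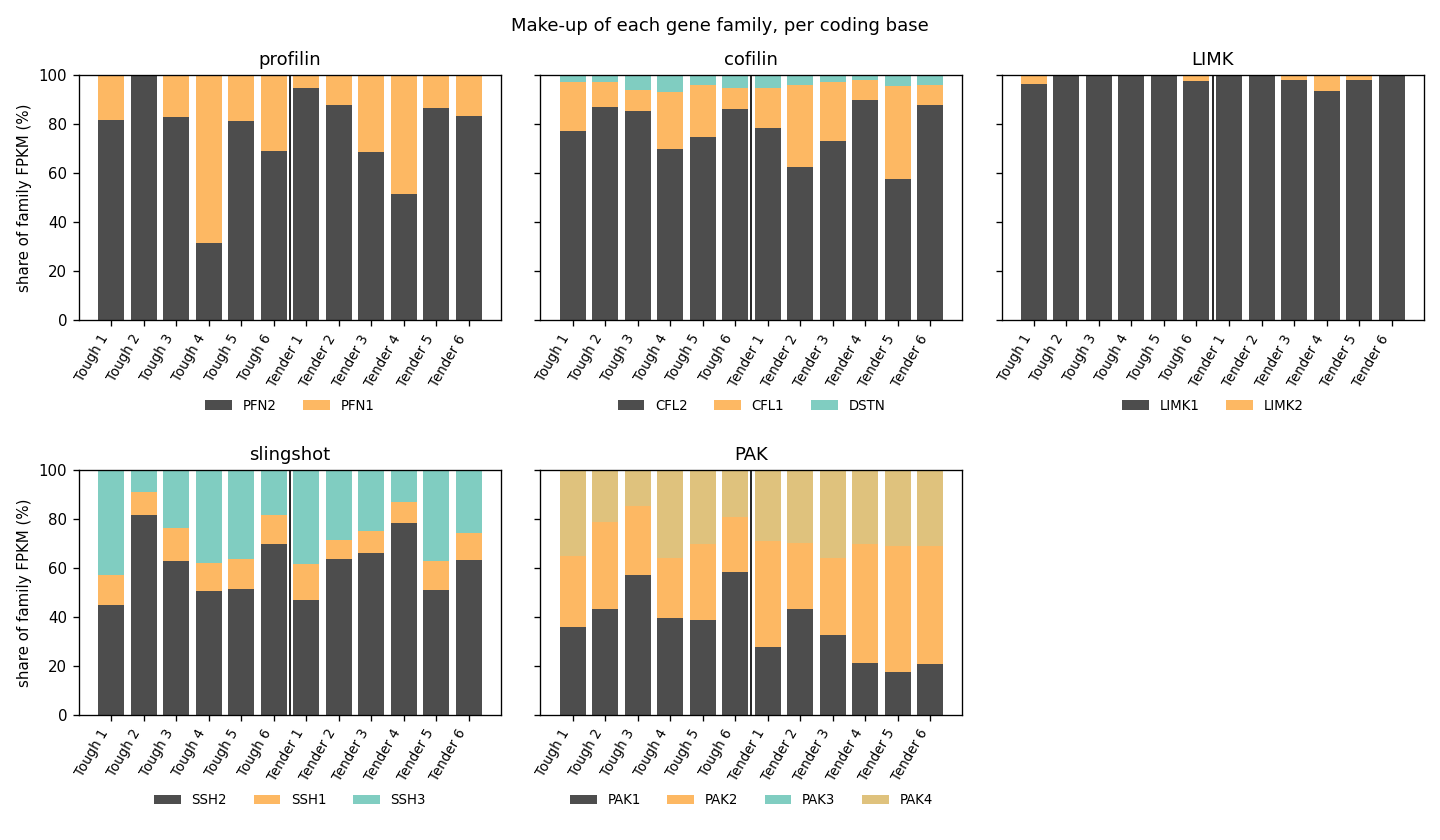
Make-up of 5 gene families in each library (share of the family's FPKM per coding base, vertical axis, %), with 6 Tough libraries left of the line and 6 Tender libraries right of it. *LIMK1* and *CFL2* hold most of their families in both groups, and *PAK1* averages 45.5% in Tough and 27.2% in Tender.

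The shear force of each animal took no part in the choice of genes beyond the groups, so it was set against the members within each group. Of 16 relations (8 members in each group, since *PFN1* is at 0 in most libraries), none passed an adjusted p of 0.05 in an exact permutation test over all 720 pairings, two-sided. By assigned transcripts the strongest was *ABLIM1* in the Tough group, which was higher in tougher loins, with Pearson's r = 0.84 (exact permutation p = 0.0167, adjusted p = 0.267, n = 6) and Spearman's rank correlation = 0.77 (exact permutation p = 0.103, adjusted p = 0.544). Without the 2 animals farthest from the median shear force, Tough 1 and Tough 6, r was 0.80. Per coding base r for *ABLIM1* in Tough was 0.57 (exact permutation p = 0.236, adjusted p = 0.521 over 18 relations), and 0.11 without these animals. In the Tender group r for *ABLIM1* was 0.53 (exact permutation p = 0.254, adjusted p = 0.811).

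Per coding base, where none of 18 relations passed either, the smallest p belonged to *PFN2* in Tender, with r = -0.77 (exact permutation p = 0.0319, adjusted p = 0.521) and Spearman's rank correlation = -0.94 (exact permutation p = 0.0167, adjusted p = 0.300). By assigned transcripts r for *PFN2* in Tender was -0.20 (exact permutation p = 0.728, adjusted p = 0.811).

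By assigned transcripts the next in size were *ABLIM3* in Tender with r = 0.76 (exact permutation p = 0.114, adjusted p = 0.767), which turned to -0.69 without Tender 2 and Tender 3, and *PAK1* in Tough with r = -0.65 (exact permutation p = 0.179, adjusted p = 0.767). With 6 animals in a group the smallest p this test can reach for the rank correlation is 0.00278 where no value is tied. For Pearson's r it can be lower. Within the narrow Tender range of shear force, Tender 2 alone lies far from the other 5.

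The other genes of actin dynamics were taken from a list of 114 regulators ordered by role, of which 89 were tested. None was called by limma or by the exact Wilcoxon test, and by each the unadjusted p was at most 0.05 in 2 genes with higher Tough levels and 0 with higher Tender levels. The median log2 difference of the list was 0.01, beside -0.04 for all genes. By limma both were higher in Tough, and neither passed the adjustment. *LMOD1*, a leiomodin of smooth muscle that starts filaments, had 10.2 ± 3.75 FPKM in Tough and 2.59 ± 4.30 FPKM in Tender (limma adjusted p = 1.00), and is listed at 0 in 4 Tender libraries. *MRTFA* (named *MKL1* in this annotation), a coactivator of serum response factor that senses free actin, averaged 1.15 FPKM in Tough and 0.806 FPKM in Tender (limma adjusted p = 1.00).

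By role, 4 of the 5 actin genes were tested and all 4 had positive differences. *ACTA1*, the main actin of skeletal muscle, is listed at 0 in all 12 libraries. *ACTB*, a cytoplasmic actin, had 32.1 ± 7.23 FPKM in Tough and 25.9 ± 7.34 FPKM in Tender (limma adjusted p = 1.00), and *ACTA2*, the smooth muscle actin, 23.9 ± 11.4 FPKM in Tough and 17.0 ± 2.84 FPKM in Tender (limma adjusted p = 1.00). Of the monomer-binding and severing genes 19 were tested, 9 with positive and 10 with negative differences. Their lowest p among genes of at least 1 FPKM were those of *AVIL*, *TWF2* and *CAP2*. *TWF2*, a twinfilin that binds monomers and caps ends, had 95.8 ± 17.2 FPKM in Tough and 124 ± 37.6 FPKM in Tender (limma adjusted p = 1.00). Per coding base 4 of 18 were positive and 14 negative.

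Capping and length genes had 14 tested, 9 positive and 5 negative. The muscle leiomodin *LMOD3* had 147 ± 24.5 FPKM in Tough and 119 ± 38.2 FPKM in Tender (limma adjusted p = 1.00), and *NEB*, the giant protein along the thin filament, differed by 0.01. Nucleation and elongation genes had 27 tested, 10 positive and 17 negative. The formin *DIAPH1* had 50.5 ± 9.09 FPKM in Tough and 98.6 ± 57.3 FPKM in Tender (limma adjusted p = 1.00). None of these differences passed the test.

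Among the other kinases and phosphatases of cofilin 10 were tested, 6 positive and 4 negative. *SSH1* was lowest in p, with 1.44 ± 0.223 FPKM in Tough and 1.30 ± 0.402 FPKM in Tender (limma adjusted p = 1.00). Of the partners of abLIM, *ABRA*, which binds abLIM proteins in mouse, is listed at 0 in 3 Tough and 2 Tender libraries. *SRF*, the serum response factor, averaged 16.9 FPKM in either group. Per coding base 91 genes of the list were tested, with 34 positive and 57 negative differences and a median of -0.04, beside -0.05 for all genes.

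Deviations from the group means over the 12 libraries were also compared with those of 6635 or 6636 named genes present in every library. The closest to *ABLIM3* was *NDUFV2* (r = 0.90), to *ABLIM1* *MYOZ2* (0.85), to *PFN2* *ANAPC7* (0.96), to *PAK1* *C14H1orf131* (0.75), to *SSH2* *CTDSPL* (0.80), to *LIMK1* *LRPAP1* (0.93), to *RHOD* *TPPP3* (0.85) and to *CFL2* *CCDC12* (0.94). These are the highest of all those values over 12 libraries that share depth and assembly, and they are given as descriptions only.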

How the data were processed

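The deposited file of each library is a Cufflinks 2.2.1 assembly, made by the authors after FastQC, Trim Galore and TopHat 2.1.0 on Sscrofa11.1, according to the submitters' processing notes. The authors' FPKM of each transcript was used, and the deposited isoform score was not. Depth is known only relatively, so no counting error is given. Transcripts were matched with bedtools 2.31.1 to the NCBI annotation (Release 106) by strand, either strand where the assembly gave none, and assigned where at least 50% of their bases lay in a gene's exons. Genes with a mean above 0.5 FPKM were fitted by limma (version 3.58.1, R 4.3.3; trend, group as the only factor, no rescaling) on log2(FPKM + 0.5). A call needed a 1.5-fold change, a p not above 0.05 and a Benjamini-Hochberg adjusted p not above 0.1. The authors used another test, Cuffdiff, with a further Tender animal. They report differentially expressed genes between the groups, *RHOD* among them, so the absence of calls here belongs to limma on FPKM. Members and lists were chosen with earlier results of these data known.

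Named are the members, their families (shares of the abLIM family, and 1 role of the list, are not reported here), up to 3 genes per role with the smallest p and a mean of at least 1 FPKM, and the gene most like each member; *NEB*, *SRF*, *MRTFA* and *ACTA1* were added after their values were seen. The fit was tested on simulated data. Alternatives were the pseudocount, the filter, 2 scalings, other gene measures, the animal number as a block, an exact Wilcoxon test and each library left out. The animals are separate, so p-values measure the spread between animals. Other steps used scipy 1.17.1, pandas 2.3.3 and numpy 2.4.6 under Python 3.11.15, with figures by matplotlib 3.10.9. The sources used here give neither lane nor batch for an animal.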

Additional observations from a re-analysis of the deposited data

Results flagged for a closer look

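Dixon's criterion, which chance meets in about 1 in 20 groups, was applied to 36 groups of 6 libraries, and 4 values stood apart. *PFN1* was at 32.3 FPKM by assigned transcripts in Tough 4, where the other 5 Tough libraries are listed at 0. Per coding base *PFN1* was at 44.9 FPKM in Tough 4, with 5.85 FPKM in the nearest Tough library, and at 39.8 FPKM in Tender 4, with 12.1 FPKM in the nearest Tender library. These are the only libraries in which all 3 exons were assembled. *SSH2* was at 19.7 FPKM per coding base in Tender 4, with 9.30 FPKM in the nearest Tender library.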

How the results depend on the processing

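No gene was called under any of the 25 alternatives, and no relation with shear force under any of 21. Of these alternatives the exact Wilcoxon test could hardly have called a gene, since its smallest p is too coarse for the adjustment. Unadjusted p of at most 0.05 was found for 67 genes with higher Tough and 157 with higher Tender levels. With 1 library left out these were 57 to 251 (251 without Tender 4) and 86 to 312 (86 without Tender 5, 94 without Tough 6, 298 without Tender 1, 312 without Tough 1). The count higher in Tough was 152 without a filter on low values, 137 by median-of-ratios scaling and 143 by quantile normalization, beside 142 and 145 higher in Tender under these scalings. The plain sum of transcript FPKM gave 106 and 279. In the list of 114 regulators the count higher in Tough, 2, was 1 with a minimum mean of 1 FPKM, by the plain sum and with the replicate block, and 1 to 6 with 1 library left out (6 without Tender 4, 4 without Tough 6, 1 without Tough 2 or 5 or Tender 1, 2, 5 or 6). The count higher in Tender, 0, was 1 without the filter, per exon base and per coding base, 4 by the plain sum, and 0 to 2 with 1 library left out (2 without Tender 1, 1 without Tough 1 or Tender 6). The cause of these shifts was not tested. Per coding base and strand-only transcripts were chosen after seeing the data.

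Of the members, *PFN2*, *PAK1*, *ABLIM3* and *LIMK1* kept their sign under every alternative run to the level by assigned transcripts. *LIMK1* per coding base was 0.02 without Tender 5. *RHOD* kept its sign where it was fitted, in only 9 of the 12 fits that left out 1 library. Where a Tender library with its highest levels was left out, it fell below the filter, so its sign was not examined there. *CFL2*, 0.73, changed sign per exon base (-0.38) and without Tender 5 (-0.46), and was 1.94 with transcripts at least 90% in the gene, under which *SSH2* was -1.28 and *PFN2* -0.32. *SSH2*, -0.26, changed it by the plain sum (0.03) and without Tender 4 (0.06), *ABLIM1* without Tender 6 (0.02) and *PFN1* with transcripts at least 90% in the gene (0.04). Animal numbers did not pair the libraries (correlations of deviations -0.22 to 0.02), and with the animal number as a replicate block 66 and 111 genes had an unadjusted p of at most 0.05.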
